A study of Mus musculus with 10 samples.

Results

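The levels of 10 mouse genes of oxidant and metal defence were measured in whole skeletal muscle. The genes are the superoxide dismutases Sod1, Sod2 and Sod3, catalase (Cat), the glutathione peroxidases Gpx1, Gpx3 and Gpx4, the peroxiredoxin Prdx3, and the metallothioneins Mt1 and Mt2. The genes were chosen by name from their function, with earlier results of these data known. They are 10 of the 20009 genes with at least 1 count in the deposited tables. The level of a gene is the sum of the counts over all of its annotated transcripts. The study compared the soleus, a slow-twitch muscle, with the tibialis anterior (TA), a fast-twitch muscle, in wild type mice. Soleus gave 5 libraries (2 female, 3 male) and TA gave 5 libraries (2 female, 3 male). The labels give tissue, genotype, sex and a replicate number, and no strain, age, treatment or batch was used here. RNA was taken from whole muscle, so fewer cells of a type and less RNA per cell cannot be told apart. The sample titles do not say that same-numbered libraries come from the same mouse, or that replicates were prepared independently. P-values therefore measure the spread between these libraries. The main fit does not pair libraries, and a fit with the replicate number as a block is an alternative given below.

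Superoxide dismutases turn superoxide, which leaks from the respiratory chain and from oxidases, into hydrogen peroxide. Catalase, the glutathione peroxidases and the peroxiredoxins then remove the peroxide in different compartments: catalase mainly in peroxisomes, Prdx3 in mitochondria, Gpx1 in cytosol and mitochondria, Gpx4 on membrane lipids, and Gpx3 outside the cell. Metallothioneins are small cysteine-rich proteins that bind zinc and copper and are induced by metals and glucocorticoids. Slow oxidative muscle is known for a high mitochondrial content, and fast muscle for a high glycolytic capacity.

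The libraries were shallow, with 726414 to 961844 counts each. The 2 genes Gm20594 and Cep295 held 17.2% to 28.4% and 3.85% to 6.26% of the counts, which left 513984 to 632144 counts outside them in soleus libraries and 611106 to 696675 in TA libraries. Fibre markers matched the tissue labels, with the summed slow fibre list (Myh7, Tnnc1, Tnni1, Tnnt1, Myl2 and Myl3) at 5116 to 6965 CPM (counts scaled to a library of 1000000) in soleus and 0 to 12.7 CPM in TA. The library soleus female 2 stood apart: 15070 genes were detected in it, against 10971 to 11858 in the other 9 libraries. Its counts on transcripts annotated as retained introns, summed over all genes, equalled 12.5% of its counts outside those 2 genes. The same ratio was 6.19% to 10.8% in the others, and any retained intron counts of those 2 genes are in its numerator. It also held 92 counts of the Y-linked gene Kdm5d, against 6 to 23 in the other libraries, with 0 counts of Ddx3y, another Y-linked gene. Values without it are given beside some of the results below, and not beside all that it moves.

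Of the 10 genes, 9 passed the filter on low counts and were tested, and Gpx4 did not. Between soleus and TA, 4 of the 9 passed an adjusted p of 0.05 in edgeR's quasi-likelihood test, adjusted over all 5115 genes tested. Over all genes tested the share called was 22.0%. Cat and Sod3 were higher in soleus, and Gpx3 and Sod2 were lower, which makes 2 of 9 each way, against a background of 11.0% each way. The soleus and TA libraries did not overlap for Sod3, Cat and Gpx3, 3 of the 9 tested genes, against 15.1% of all genes tested. The median log2 fold change, soleus over TA, was -0.25 over the 9 genes and 0.01 over all genes tested. Levels below are CPM on library sizes scaled by the trimmed mean of M values (TMM), and they are not divided by transcript length, so they compare libraries and not genes.

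**Figure D1:**
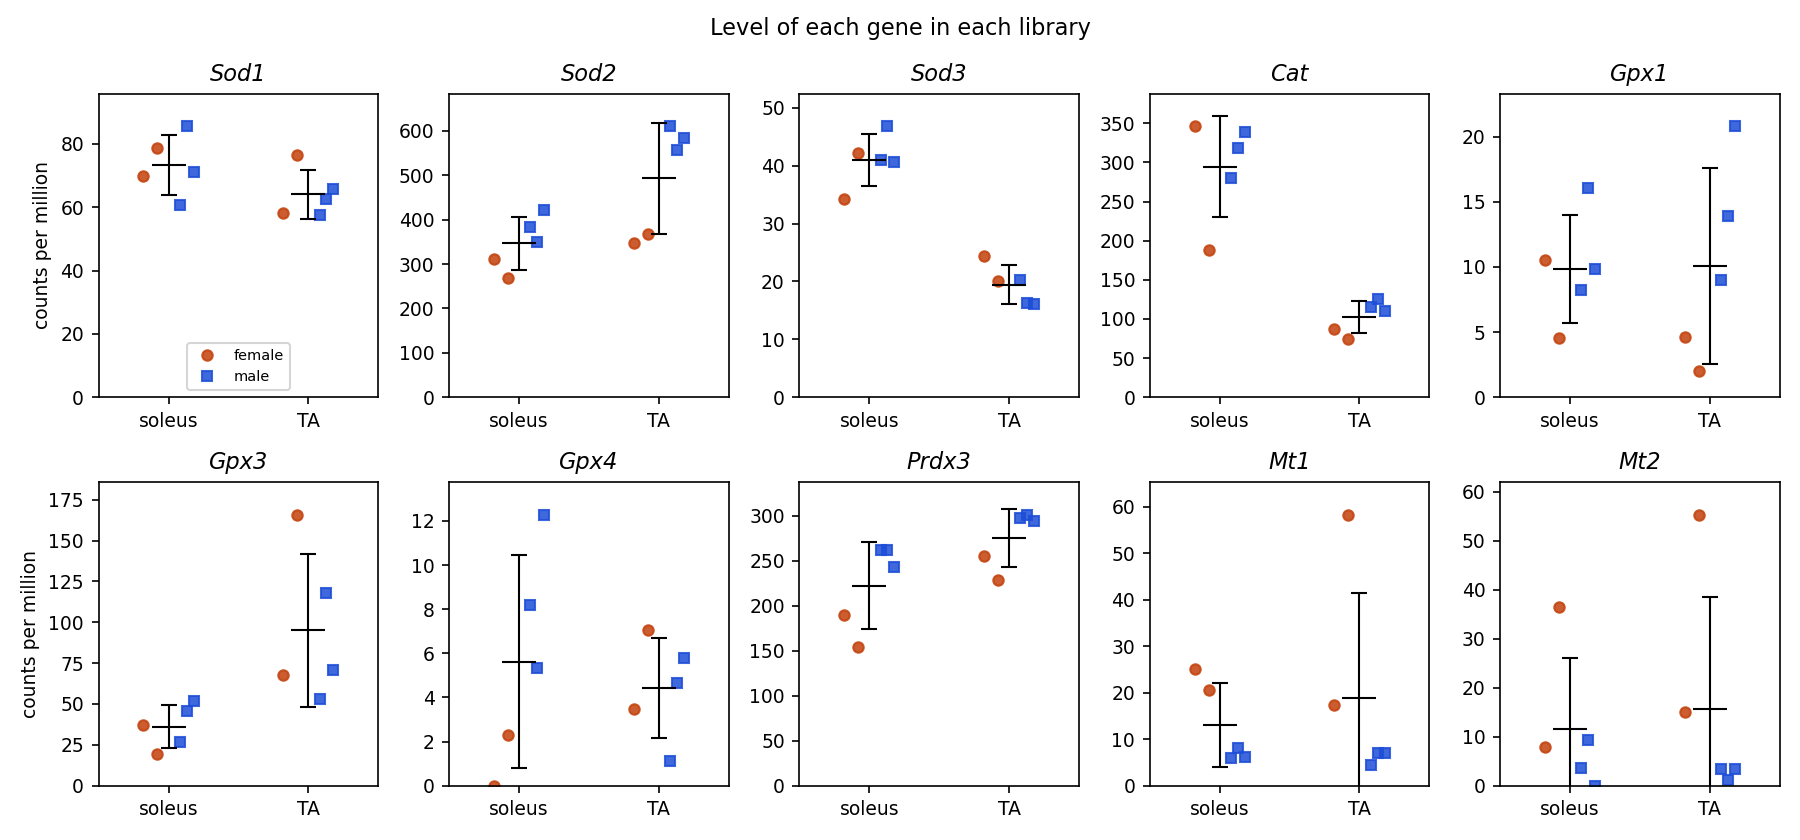
Level in CPM (vertical axes, linear, from 0) of each of the 10 genes in the 5 soleus and 5 TA libraries; circles are female and squares male libraries, and the black line and bar give the mean and SD of the 5 libraries of a muscle. Cat and Sod3 are above all TA libraries in every soleus library, Gpx3 is below all TA libraries in every soleus library, and Mt1 is higher in every female library than in every male library.

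Sod3, the superoxide dismutase that is secreted and bound to the extracellular matrix, was higher in soleus. It stood at 34.3 and 42.3 CPM in the female and 40.9, 46.8 and 40.6 CPM in the male soleus libraries, against 24.4 and 20.1 CPM in the female and 20.3, 16.2 and 16.2 CPM in the male TA libraries. All 5 soleus libraries were above all 5 TA libraries. The mean was 41.0 ± 4.51 CPM in soleus and 19.4 ± 3.43 CPM in TA (SD, n = 5 each), a log2 fold change of 1.07 (SE 0.19, 95% interval 0.66 to 1.49; adjusted p = 0.00163, edgeR), or 2.10-fold. Without soleus female 2 the log2 fold change was 1.09 (adjusted p = 0.00207, edgeR). The gene (ENSMUSG00000072941, GRCm38 chr5:52363791-52371418, plus strand) has 1 annotated transcript with counts, and 166 counts in all of soleus, against 87 in all of TA.

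Sod2, the manganese enzyme of the mitochondrial matrix, was lower in soleus. Its levels were 311 and 268 CPM in the female and 384, 349 and 422 CPM in the male soleus libraries, against 348 and 368 CPM in the female and 611, 557 and 584 CPM in the male TA libraries. The muscles overlapped, because the female TA libraries lay within the range of the male soleus libraries or just under it, while soleus was below TA in each of the 5 pairs of the same sex and number. The mean was 347 ± 59.96 CPM in soleus and 494 ± 125 CPM in TA (SD, n = 5 each), a log2 fold change of -0.48 (SE 0.13, 95% interval -0.76 to -0.21; adjusted p = 0.0153, edgeR). This call was lost without soleus male 1 (adjusted p = 0.0513, edgeR), without soleus male 2 (adjusted p = 0.0501, edgeR) and with no filter on low counts (adjusted p = 0.0701, edgeR), each with a negative fold change.

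Sod2 levels followed an order over the 4 groups. Male TA was highest, male soleus and female TA followed with overlapping libraries, and female soleus was lowest with no overlap with female TA. Within soleus the log2 difference, female minus male, was -0.41 (SE 0.18; adjusted p = 0.284, edgeR), and within TA it was -0.71 (SE 0.18; adjusted p = 0.106, edgeR). Neither passed, although the sexes did not overlap in either muscle. The TA difference was called by DESeq2 (-0.73, adjusted p = 0.0390) and by edgeR without soleus female 1 (adjusted p = 0.0479) or soleus female 2 (adjusted p = 0.0494). The gene (ENSMUSG00000006818, chr17:13006846-13040063, plus strand) had 94.2% of its counts on the transcript Sod2-201. The transcript Sod2-202, annotated as a target of nonsense-mediated decay, held 7.20% of the Sod2 counts in soleus and 4.29% in TA, a share that was not tested and that rests on 101 and 94 counts.

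Sod1, the copper and zinc enzyme of the cytosol, was not called. Its mean was 73.3 ± 9.42 CPM in soleus and 64.1 ± 7.69 CPM in TA (SD, n = 5 each), with ranges of 60.8 to 85.7 CPM and 57.5 to 76.5 CPM that overlapped. The log2 fold change was 0.19, with a 95% interval of -0.13 to 0.52 (adjusted p = 0.421, edgeR). Sod1 (ENSMUSG00000022982, chr16:90220754-90226329, plus strand) shares sequence with other annotated genes: of the 611 stretches of 31 bases in its main transcript, 395 occur in no other gene. How such reads were counted is not given in the sources used here.

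Cat was higher in soleus, with the smallest adjusted p of the 9 tested genes. Its product breaks hydrogen peroxide into water and oxygen, mainly in peroxisomes. It stood at 347 and 188 CPM in the female and 281, 319 and 339 CPM in the male soleus libraries, against 87.2 and 74.4 CPM in the female and 115, 125 and 109.8 CPM in the male TA libraries. Every soleus library was above every TA library, and soleus female 2 was the lowest of the soleus libraries. The mean was 295 ± 64.7 CPM in soleus and 102 ± 20.9 CPM in TA (SD, n = 5 each), a log2 fold change of 1.54 (SE 0.18, 95% interval 1.16 to 1.92; adjusted p = 4.48e-05, edgeR), or 2.91-fold. Without soleus female 2 it was 1.66 (adjusted p = 5.48e-06, edgeR). All of the counts lay on the transcript Cat-201 (ENSMUSG00000027187, chr2:103453849-103485160, minus strand), 1182 over soleus and 454 over TA.

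Red blood cells carry catalase, and their 6 markers (Hba-a1, Hba-a2, Hbb-bs, Hbb-bt, Alas2 and Slc4a1) were all detected. Their summed level was 261 to 36848 CPM in soleus and 1569 to 21794 CPM in TA, and edgeR called 0 of the 6 between the muscles, with 0 at an unadjusted p under 0.05 and 0 called by DESeq2. The soleus library with the highest Cat, soleus female 1 at 347 CPM, had the lowest red blood cell sum of all libraries, 261 CPM. Soleus male 3, with Cat at 339 CPM, had the highest sum, 36848 CPM. Soleus female 2, with the lowest soleus Cat, 188 CPM, had a sum of 2526 CPM. In TA the female libraries were below the male libraries in Cat and in the sum (1569 to 4469 CPM, against 6255 to 21794 CPM). The part of red blood cells in the Cat difference was not tested. Adipocyte markers were higher in soleus, with a sum of 21.1 to 32.1 CPM, against 2.26 to 6.98 CPM in TA, over a list of 7 genes of which 1 was at 0 in all soleus libraries and 3 in all TA libraries. Of 6 tendon markers, 5 were tested and 1 was higher in soleus (Comp, log2 fold change 2.81, SE 0.56), with a summed level of 278 to 1021 CPM in soleus and 154 to 685 CPM in TA and no gene at 0 in a whole muscle. Of 5 skin markers, 1 was tested and called higher in soleus (Dsp), with 49 counts in soleus and 0 in TA. Dsp passed the filter through soleus alone, so nothing is read from that call. Krt10 (3 counts in soleus, 2 in TA) and Krt5 (2 and 0) had few counts. The sum of the list was 1.32 to 23.4 CPM in soleus and 0 to 1.16 CPM in TA. Of its genes, 2 were at 0 in all soleus and 4 in all TA libraries. The part of adipocytes, tendon and skin in the Cat and Sod3 differences was not tested. The endothelial sum was 179 to 265 CPM in soleus and 237 to 798 CPM in TA, with overlap.

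Gpx3, the secreted glutathione peroxidase of plasma and extracellular fluid, was lower in soleus. It stood at 36.9 and 19.4 CPM in the female and 26.9, 45.5 and 51.6 CPM in the male soleus libraries, against 67.5 and 166 CPM in the female and 53.0, 118 and 70.5 CPM in the male TA libraries. The muscles did not overlap, but the highest soleus library (51.6 CPM) and the lowest TA library (53.0 CPM) were close. The mean was 36.1 ± 13.2 CPM in soleus and 95.0 ± 46.6 CPM in TA (SD, n = 5 each), a log2 fold change of -1.39 (SE 0.35, 95% interval -2.15 to -0.64; adjusted p = 0.0126, edgeR). The value was -1.14 without soleus female 2 (adjusted p = 0.0221, edgeR) and -1.05 without TA female 2 (adjusted p = 0.0301, edgeR). In the male libraries alone it was -0.95 and lost the call (adjusted p = 0.0526, edgeR). Of 6 endothelial markers, 2 of 2 tested (Kdr and Cdh5) were lower in soleus, and of 6 markers of smooth muscle and pericytes, 2 of 4 tested. The endothelial markers that were not tested had few counts. Pecam1 (20 counts in soleus, 19 in TA), Tie1 (9 and 5) and Egfl7 (8 and 5) were not lower in soleus, and Tek (2 and 4) was. The smooth muscle and pericyte sum was 416 to 662 CPM in soleus and 604 to 1185 CPM in TA, no gene of either list was at 0 in a whole muscle, and their part in the Gpx3 result was not tested. Gpx3 is ENSMUSG00000018339, chr11:54902453-54910377, plus strand.

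Gpx1, the most widespread glutathione peroxidase, gave few counts, 39 over soleus and 44 over TA. Its mean was 9.84 ± 4.17 CPM in soleus and 10.1 ± 7.50 CPM in TA (SD, n = 5 each), and the log2 fold change of 0.07 had a 95% interval of -0.85 to 0.99 (adjusted p = 0.934, edgeR). The gene (ENSMUSG00000063856, chr9:108338903-108340343, plus strand) passed the filter through male libraries: 3 of them and 0 female libraries reached 10 counts. In TA the 2 female libraries stood at 4.65 and 2.01 CPM and the 3 male libraries at 9.02, 13.9 and 20.8 CPM, a log2 difference, female minus male, of -2.11 (SE 0.64; adjusted p = 0.198, edgeR) that did not pass. The red blood cell sum moved with sex in the same direction, with 261 to 4469 CPM in female and 6255 to 36848 CPM in male libraries, and its part in the Gpx1 values was not tested.

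Gpx4, the enzyme that reduces lipid hydroperoxides in membranes, had few counts, 23 counts over soleus and 20 over TA (ENSMUSG00000075706, chr10:80047166-80056439, plus strand). Its levels were 0 and 2.28 CPM in the female and 8.19, 5.35 and 12.3 CPM in the male soleus libraries, against 3.49 and 7.04 CPM in the female and 1.13, 4.63 and 5.78 CPM in the male TA libraries. A count of 0 in soleus female 1 allows a level of up to 3.95 CPM, for counting error only. The gene shares sequence with other annotated genes: of the stretches of 31 bases in its coding transcripts, 320 of 965 in Gpx4-201 and 241 of 929 in Gpx4-202 occur in no other gene. Most of the counts lay on the retained intron transcript Gpx4-206 (19 counts) and the processed transcript Gpx4-204 (14 counts). With no filter the log2 fold change was 0.16 (adjusted p = 0.909, edgeR), and no difference was detectable in these counts.

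Prdx3, the peroxiredoxin of the mitochondrial matrix, was not called. It stood at 189.8 and 154 CPM in the female and 262, 262 and 243 CPM in the male soleus libraries, against 255 and 228 CPM in the female and 298, 301 and 294 CPM in the male TA libraries. Soleus was below TA in each of the 5 pairs of the same sex and number, and the muscles overlapped. The means were 222 ± 48.3 CPM in soleus and 275 ± 32.1 CPM in TA (SD, n = 5 each), and the log2 fold change was -0.33 (SE 0.12, 95% interval -0.60 to -0.05; adjusted p = 0.0835, edgeR). Without soleus female 2 the log2 fold change was -0.23. Within soleus the log2 difference, female minus male, was -0.57 (SE 0.18; adjusted p = 0.144, edgeR), with no overlap of the sexes. The gene is ENSMUSG00000024997, chr19:60864051-60874556, minus strand.

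**Figure D2:**
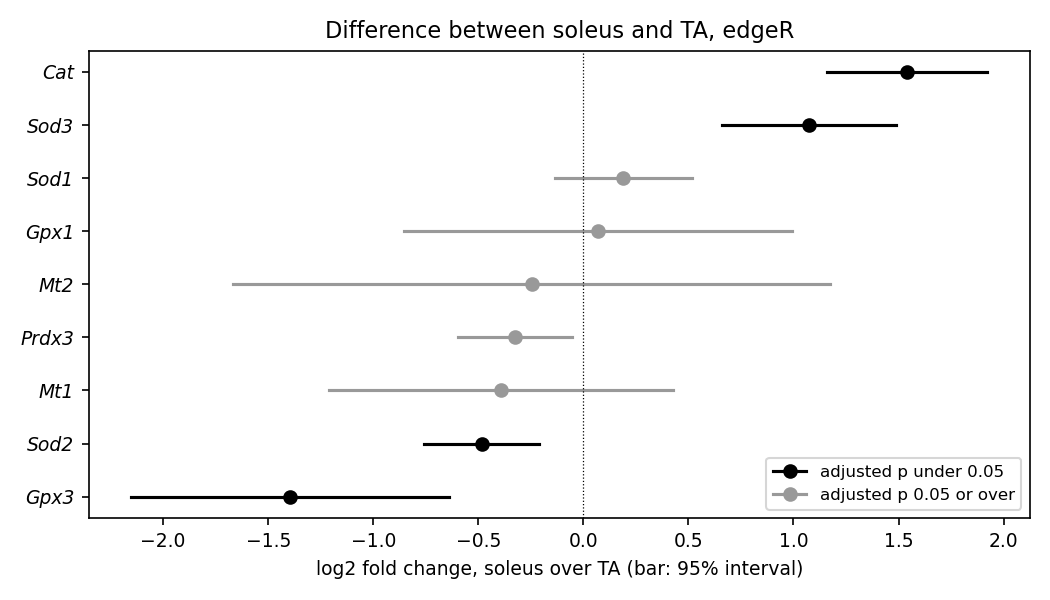
Log2 fold change, soleus over TA (horizontal axis), of the 9 tested genes in edgeR's fit with sex as a covariate, with 95% intervals; black marks an adjusted p under 0.05 and grey the rest. Cat (1.54) and Sod3 (1.07) lie to the right of 0 and Sod2 (-0.48) and Gpx3 (-1.39) to the left, and the widest intervals belong to Mt2, Gpx1 and Mt1.

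The metallothionein genes Mt1 and Mt2 lie beside each other on chromosome 8, at chr8:94179082-94180327 (Mt1, ENSMUSG00000031765) and chr8:94172664-94173568 (Mt2, ENSMUSG00000031762), both on the plus strand. They are transcribed in response to zinc, cadmium and glucocorticoids, and the zinc-sensing factor MTF-1 binds metal response elements in their promoters. The promoter windows are shown because both genes had their highest levels in the same library. RefSeq's GRCm38.p6 annotation gives the windows from 250 bases before to 50 bases after the start, at chr8:94178839-94179138 for Mt1 and chr8:94172368-94172667 for Mt2, plus strand, 5′ to 3′. The RefSeq starts differ from the gene starts given above. The Mt2 window ends at 94172667, just past the gene start at 94172664. Capitals mark matches on either strand to TGCACNC or TGCGCNC, the core of the metal response element.
Mt1: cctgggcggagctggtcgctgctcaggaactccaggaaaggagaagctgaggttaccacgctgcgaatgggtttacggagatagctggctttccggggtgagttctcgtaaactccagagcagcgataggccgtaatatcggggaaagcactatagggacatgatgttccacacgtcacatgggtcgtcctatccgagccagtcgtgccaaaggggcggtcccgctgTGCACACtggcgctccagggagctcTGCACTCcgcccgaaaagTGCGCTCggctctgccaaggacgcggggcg
Mt2: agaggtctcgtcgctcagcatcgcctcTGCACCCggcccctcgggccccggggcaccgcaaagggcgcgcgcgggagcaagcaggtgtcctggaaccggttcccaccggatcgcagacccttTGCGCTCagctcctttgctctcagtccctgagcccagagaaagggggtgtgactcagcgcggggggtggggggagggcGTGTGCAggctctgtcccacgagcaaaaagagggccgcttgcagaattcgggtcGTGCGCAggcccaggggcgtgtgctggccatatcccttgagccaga
Mt1 had 3 matches (2 to TGCACNC and 1 to TGCGCNC) and Mt2 had 4 (2 to each), with no overlap between matches. Of all 32851 promoter windows of that length, 25.7% held at least 1 match, 1.97% at least 3 and 0.517% at least 4. A window was found for 9 of the 10 genes, all but Sod3, and 0 of the other 7 held a match. A match is a description of the letters and not of binding in these muscles.

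Between the muscles the metallothioneins were not called. Mt1 averaged 13.1 ± 9.01 CPM in soleus and 18.8 ± 22.6 CPM in TA (SD, n = 5 each), a log2 fold change of -0.39 (95% interval -1.21 to 0.43; adjusted p = 0.522, edgeR). Mt2 averaged 11.5 ± 14.5 CPM in soleus and 15.7 ± 22.8 CPM in TA (SD, n = 5 each), a log2 fold change of -0.25 (95% interval -1.67 to 1.17; adjusted p = 0.836, edgeR). The intervals leave room for more than a doubling of TA over soleus in either gene. Without TA female 2 the fold changes turned to 0.23 for Mt1 and 0.58 for Mt2, so the direction rests on that library, and without soleus female 1 that of Mt2 turned to 0.17. Without soleus female 2 the log2 fold change of Mt2 was -0.85.

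The metallothioneins averaged higher in female libraries. Both passed the filter on low counts through female libraries alone, the sex in which they were high, so nothing is read from their share against all genes tested. Their sex tests and adjusted p-values below carry the same limit. Mt1 stood at 25.0 and 20.6 CPM in the female and 5.85, 8.03 and 6.15 CPM in the male soleus libraries, and at 17.4 and 58.3 CPM in the female and 4.51, 6.95 and 6.94 CPM in the male TA libraries. All 4 female libraries were above all 6 male libraries, which held for 1 of the 9 tested genes (background 3.77%). In TA the log2 difference, female minus male, was 2.62 (SE 0.50; adjusted p = 0.0406, edgeR), and Mt1 was the only one of the 9 genes called there (background 0.645%). In soleus it was 1.75 (SE 0.53, adjusted p = 0.136, edgeR), and 0 of the 9 genes were called, against a background of 0.547%. In edgeR 4 of them had an unadjusted p under 0.05 (16.5% of all genes tested), in both directions. Sod2 (-0.41) and Prdx3 (-0.57) were lower in females, and Mt1 and Mt2 were higher. DESeq2 called 0.

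The TA call rests on few counts. Mt1 had 110 counts over the 4 female and 32 over the 6 male libraries, and no male library reached 10 counts. With no filter the TA difference was 2.58 (adjusted p = 2.74e-05, edgeR). Without TA female 2 the log2 difference in TA was 1.47 (adjusted p = 0.600, edgeR). The call was also lost without any of the 3 male TA libraries (adjusted p = 0.138 to 0.181, edgeR) or any of the 3 male soleus libraries (adjusted p = 0.0715 to 0.0775, edgeR), with log2 differences of 2.42 to 2.69. Without soleus female 2 it was 2.61 (adjusted p = 0.0118, edgeR).

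Mt2 had a like distribution, with more spread. It stood at 7.91 and 36.5 CPM in the female and 3.51, 9.37 and 0 CPM in the male soleus libraries, and at 15.1 and 55.3 CPM in the female and 3.38, 1.16 and 3.47 CPM in the male TA libraries. The sexes did not overlap in TA and overlapped in soleus. The log2 difference, female minus male, was 3.66 in TA (SE 0.92; adjusted p = 0.109, edgeR) and 2.40 in soleus (SE 0.92; adjusted p = 0.224, edgeR), and neither passed. Without soleus female 2 the soleus value was 0.91, and without soleus female 1 it was 3.00. Each of these fits left 1 female soleus library. The value of 3.00 rests on soleus female 2, the library that stood apart above. Without TA female 2 the TA value was 2.41, with 1 female TA library left. DESeq2 called the TA difference (3.71, adjusted p = 0.0259), as did edgeR without either female soleus library (adjusted p = 0.0152 and 0.0198). The 0 in soleus male 3 allows a level of up to 3.69 CPM. Mt2 had 106 counts over the female and 17 over the male libraries.

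**Figure D3:**
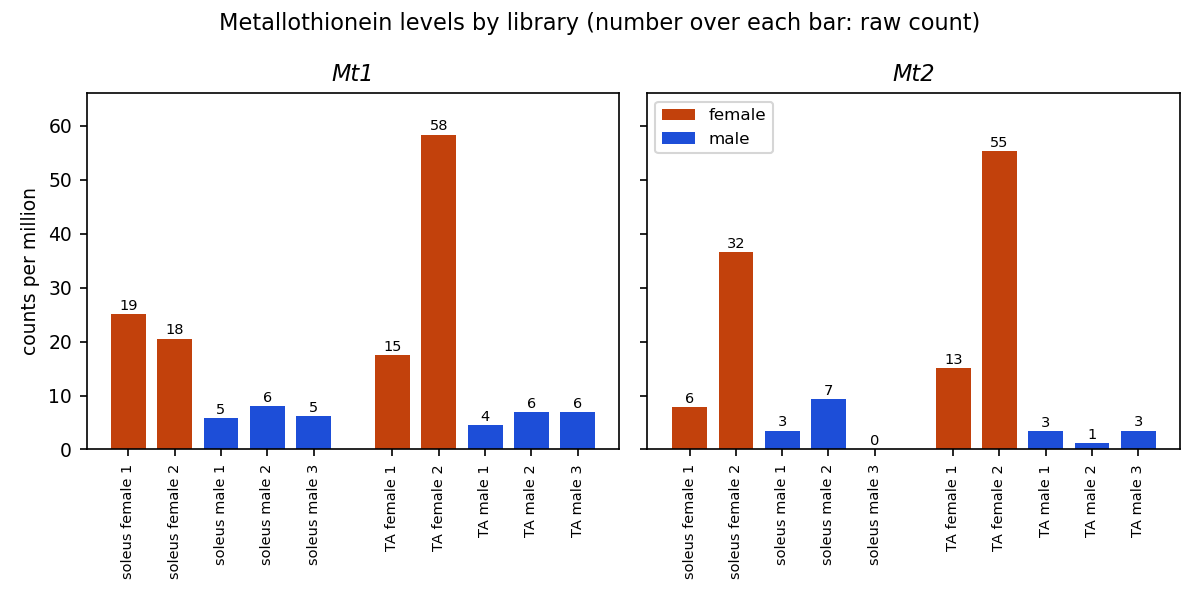
Level in CPM (vertical axis, linear, from 0) of Mt1 and Mt2 in each of the 10 libraries, with the raw count over each bar; orange bars are female and blue bars male. TA female 2 is the highest library for both genes, at 58.3 CPM (58 counts) for Mt1 and 55.3 CPM (55 counts) for Mt2.

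TA female 2 held the highest level of Gpx3, Mt1 and Mt2 among the 10 libraries. The other sex differences did not pass in edgeR's test over all 10 libraries. In TA, 6 of the 9 tested genes had sexes that did not overlap (Sod2, Cat, Gpx1 and Prdx3 lower in females, Mt1 and Mt2 higher; background 31.2%). Gpx1, Mt1 and Mt2 passed the filter through 1 sex, so nothing is read from that count. In soleus there were 3 such genes (Sod2, Prdx3 and Mt1; background 30.0%). With 2 female libraries per muscle and no age or batch in the labels, sex cannot be told apart from other differences between these libraries.

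Whether the muscle difference itself differed between the sexes was tested as an interaction. None of the 9 genes was called by edgeR, 0 had an unadjusted p under 0.05, and DESeq2 called 0; over all 5115 genes edgeR called 0, with 351 (6.86%) at an unadjusted p under 0.05. Cat was called in females (log2 fold change 1.72, adjusted p = 0.00349, edgeR; background 7.92%) and in males (1.42, adjusted p = 0.00146, edgeR; background 13.5%). Sod3 was 0.78 in females (adjusted p = 0.117, edgeR) and 1.27 in males (adjusted p = 0.00418, edgeR). Gpx3 was -2.07 in females (adjusted p = 0.0353, edgeR) and -0.96 in males (adjusted p = 0.161, edgeR), and Sod2 was -0.31 in females (adjusted p = 0.378, edgeR) and -0.60 in males (adjusted p = 0.0243, edgeR).

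The wider antioxidant system and genes around it were read from 11 lists with 172 genes, of which 89 passed the filter. The lists include oxidant sources, metal handling and glucocorticoid responsive genes, which are not antioxidant genes as such. In these lists 12 genes were higher in soleus and 9 lower, 23.6% of those tested, against 22.0% of all genes tested, and the median log2 fold change was -0.03. The share is near the background. The lists differed in which genes were called, and 8 of the 21 called genes lost the call in some alternative. Means below are given with the SD over the 5 libraries of a muscle.

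Of 6 tested genes of the peroxiredoxin and thioredoxin list (12 listed), which are peroxiredoxins, thioredoxins and their partners, 2 were higher in soleus and 0 lower, with a median log2 fold change of 0.33. Srxn1, the sulfiredoxin that repairs overoxidised peroxiredoxins, averaged 88.6 ± 36.5 CPM in soleus and 29.7 ± 3.84 CPM in TA (log2 fold change 1.58, SE 0.30; adjusted p = 0.00233, edgeR). Prdx6, a cytosolic peroxiredoxin, was called at 0.82 (SE 0.26; adjusted p = 0.0396, edgeR) and lost the call in 7 of the 10 fits without 1 library and with the replicate number as a block (0.81). None of the 7 tested genes of glutathione synthesis and recycling (15 listed) was called by edgeR, 2 had an unadjusted p under 0.05, and DESeq2 called 0. With the replicate number as a block edgeR called 1 of them, the cystine transporter Slc7a11 (1.74, adjusted p = 0.0255), and without soleus female 1 it called Slc7a11, Gclc and Chac1, 2 higher and 1 lower. Without TA male 2 it called Slc7a11. Of 7 tested glutathione transferases (14 listed), 2 were higher in soleus and 0 lower: Gsto1 (97.5 ± 24.2 CPM in soleus, 29.7 ± 3.29 CPM in TA; log2 fold change 1.68, SE 0.16) and Gstz1 (22.5 ± 3.89 CPM in soleus, 10.6 ± 3.91 CPM in TA; 1.09, SE 0.27). The block added 1 lower call, Gstm2 (-1.22, adjusted p = 0.0372, edgeR), as did leaving out TA female 1, while leaving out soleus female 2 added Gstt2, also lower.

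NRF2, encoded by Nfe2l2, is the transcription factor that switches on many antioxidant genes. Of 8 tested genes of its pathway list (11 listed), 2 were higher in soleus and 0 lower, with a median log2 fold change of 0.55. Nqo1, a quinone reductase, averaged 37.5 ± 18.4 CPM in soleus and 9.64 ± 4.23 CPM in TA (log2 fold change 1.93, SE 0.33; adjusted p = 0.00108, edgeR). Abcc1, an exporter of glutathione conjugates, averaged 57.1 ± 16.9 CPM in soleus and 23.7 ± 5.20 CPM in TA (1.27, SE 0.23; adjusted p = 0.00171, edgeR). Nfe2l2 itself was at 0.21 (adjusted p = 0.638, edgeR) and its inhibitor Keap1 at -0.28 (adjusted p = 0.753, edgeR), neither called. Hmox1, of the same list, was at 2.11 (SE 0.93) and not called, with 105 ± 204 CPM in soleus and 14.1 ± 4.98 CPM in TA. Without soleus female 1 it was at 2.43 and was called.

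NADPH feeds the glutathione and thioredoxin systems, and of 8 tested genes that supply it (15 listed) 1 was higher and 1 lower. Idh2, the mitochondrial NADP-dependent isocitrate dehydrogenase, had the largest fold change of the 89 genes: 90.0 ± 16.8 CPM in soleus and 6.14 ± 3.56 CPM in TA (log2 fold change 3.85, SE 0.30; adjusted p = 2.90e-06, edgeR). Me1, the cytosolic malic enzyme, averaged 28.2 ± 9.26 CPM in soleus and 54.0 ± 14.6 CPM in TA (-0.94, SE 0.24; adjusted p = 0.0147, edgeR). Among sources of oxidants, 2 of 5 tested genes (14 listed) were higher and 1 lower. Aox1, an aldehyde oxidase that forms superoxide and peroxide, averaged 77.1 ± 2.58 CPM in soleus and 25.4 ± 5.38 CPM in TA (1.60, SE 0.17), and Nos1, the neuronal nitric oxide synthase of the sarcolemma, averaged 17.1 ± 13.7 CPM in soleus and 159 ± 32.6 CPM in TA (-3.28, SE 0.40). Xdh was called at 1.43 (SE 0.44) and lost the call in 8 of the 10 fits without 1 library. Nox4, not tested in the main fit, was called higher without soleus female 1 (2.59).

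Of 12 tested metal handling genes (25 listed), 2 were higher in soleus and 1 lower. Slc40a1, the iron exporter ferroportin, averaged 5.59 ± 2.17 CPM in soleus and 22.7 ± 6.06 CPM in TA (log2 fold change -1.99, SE 0.31; adjusted p = 0.00059, edgeR), and Fth1, the ferritin heavy chain that stores iron, averaged 2902 ± 317 CPM in soleus and 1880 ± 264 CPM in TA (0.63, SE 0.14; adjusted p = 0.00803, edgeR). The zinc importer Slc39a14 was called at 1.19 (SE 0.36) and lost the call in 6 of the 10 fits without 1 library. Of 13 tested glucocorticoid responsive genes (16 listed), 0 were higher and 2 lower, Cebpd (155 ± 107 CPM in soleus, 294 ± 155 CPM in TA; -1.07, SE 0.26) and Sgk1 (6.55 ± 3.22 CPM in soleus, 16.1 ± 3.55 CPM in TA; -1.29, SE 0.32). Without soleus female 1 the number lower was 5, with Ddit4, Klf9 and Tsc22d3 added. Pdk4 was called higher with the replicate number as a block (1.11, adjusted p = 0.000552, edgeR) and without TA male 2, and Cebpb without soleus female 2 or TA female 2.

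The remaining lists held few calls. Of 7 tested selenoprotein genes (17 listed), 0 were higher and 2 lower, Sephs2 (-0.60, SE 0.17) and Selenow (-0.41, SE 0.13), and they lost the call in 5 and 7 of the 10 fits without 1 library. Of 10 tested peroxisome genes (21 listed), 0 were higher and 1 lower, Abcd2, a transporter of very long chain fatty acids (70.2 ± 20.7 CPM in soleus, 145 ± 54.9 CPM in TA; adjusted p = 0.00618, edgeR). The median log2 fold change of the peroxisome list was -0.17. The oxidation repair list (12 listed) also holds uncoupling proteins and paraoxonases, and its 6 tested genes were Msrb3, Park7, Ucp3, Ucp2, Msrb2 and Pon2, of which 1 was higher and 1 lower. Msrb3, a methionine sulfoxide reductase, averaged 212 ± 40.0 CPM in soleus and 351 ± 9.04 CPM in TA (-0.73, SE 0.15), and Park7 was called at 1.17 (SE 0.33) and lost the call in 4 of the 10 fits without 1 library. Ucp3, an uncoupling protein of muscle mitochondria, was called lower with the replicate number as a block (-1.28, adjusted p = 0.00527, edgeR) and without soleus female 1. Without soleus male 2 the peroxisome list had 2 lower, with Ehhadh added.

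**Figure D4:**
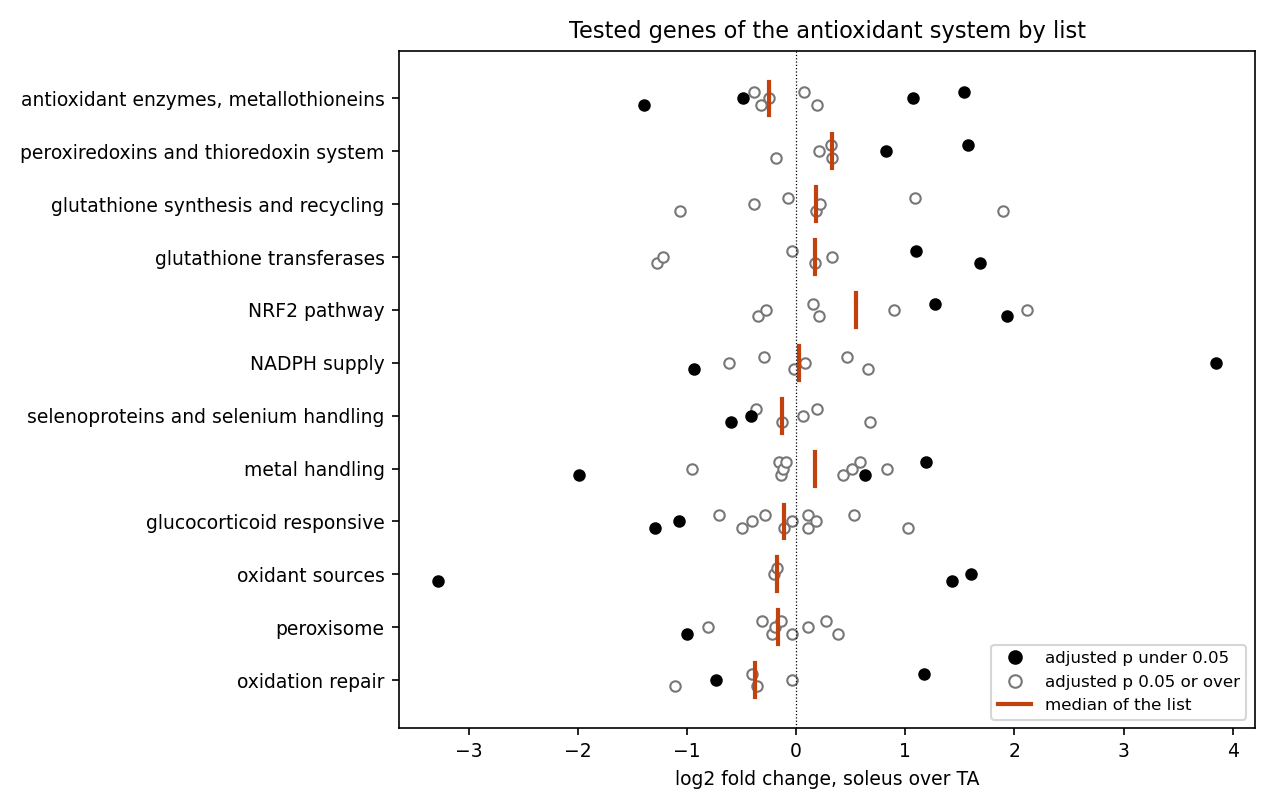
Log2 fold change, soleus over TA (horizontal axis), of each tested gene in the 10-gene set and in 11 lists. The lists cover the antioxidant system and genes around it, such as oxidant sources and glucocorticoid responsive genes. Filled points had an adjusted p under 0.05 in edgeR's test, open points did not, and the orange bar is the median of a list. Most points lie within 1 log2 unit of 0, and Idh2 (3.85) and Nos1 (-3.28) lie farthest out.

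For each called gene the tested genes with the nearest profile were found by the mean absolute difference of log2 CPM over the 10 libraries, each profile centred on its own mean. Nearest to Cat were Acot2 (0.125), Ppp1r12b (0.176), Lynx1 (0.189), Acaa2 (0.214) and Amotl1 (0.216). Nearest to Sod3 were Klhl41 (0.104), 3425401B19Rik (0.123), Actr1b (0.130) and Cfl2 (0.135). Nearest to Sod2 were Gm10704 (0.098), mt-Nd1 (0.113), Acot13 (0.113), mt-Nd2 (0.130) and Oma1 (0.131), and Prdx3 ranked 15 of all genes tested at 0.169. Nearest to Gpx3 were Abhd17c (0.272), Smad3 (0.284), Lrg1 (0.284), Mlf1 (0.296) and Tmpo (0.337), at greater distances than those of the other called genes.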

How the data were processed

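The deposited files hold raw counts per Ensembl transcript for 10 libraries, per the file contents. Per the labels' protocols, 10 ng of total RNA from a fibrous tissue kit went into a Tag-Seq preparation with a Takara stranded kit. Per the submitters' processing notes, bcl2fastq, Trimmomatic 0.32, FastQC and build GRCm38.p4 were used; the aligner and counter are not given in the sources used here. Transcripts were matched to GENCODE M21 by ID without version (40359 of 40414; the unmatched held at most 0.0631% of a library's counts) and summed per gene.

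Counts were tested in edgeR 4.0.16 (R 4.3.3) with TMM scaling, filterByExpr on the 4 groups of muscle and sex, sex as a covariate for soleus against TA, and group means for sex and interaction. P-values were adjusted by Benjamini-Hochberg over the 5115 genes tested, with a threshold of 0.05. SE is the absolute log2 fold change divided by the square root of F. DESeq2 1.42.0 was an alternative. Other alternatives changed the scaling, the filter, the library size, the transcripts counted and the libraries. The 10 genes and the lists were chosen with earlier results of these data known. All 10 genes are named; from each list, up to 3 called genes with the smallest p, and for each called gene the 5 nearest profiles, are named, except 1 that is not reported here, and Nfe2l2, Keap1 the rank of Prdx3 and genes called only in an alternative were added after their values were seen. Deviations from group means correlated at 0.183 to 0.239 between same-numbered male libraries and at -0.156 to -0.0705 between others (female: 0.285, from 1 pair of differences), so the replicate number was used as a block in an alternative. Intervals and limits for a count of 0 (3 counts) cover counting error only.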

Additional observations from a re-analysis of the deposited data

Results flagged for a closer look

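In 20 sets of 5 libraries (10 genes in 2 muscles), a single library was far from the others in 3, with a gap to the next library over 0.71 of the range. Each set mixes the sexes, the counts in these 3 were few, and the sets share libraries, so no chance rate is given. Mt1 stood at 58.3 CPM in TA female 2, with the next TA library at 17.4 CPM. Mt2 stood at 55.3 CPM in TA female 2, with the next TA library at 15.1 CPM. Mt2 also stood at 36.5 CPM in soleus female 2, with the next soleus library at 9.37 CPM. The part of library quality in these values was not tested.

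Gpx4 ran in opposite directions in the sexes on the log2 scale, with soleus below TA in both numbered female pairs (mean -1.17) and above TA in all 3 male pairs (mean 0.86). The difference between these means, -2.03, was not tested, since Gpx4 did not pass the filter. It rests on few counts. Soleus and TA held 0 and 3 counts in female pair 1 and 2 and 7 in female pair 2. They held 7 and 1 counts in male pair 1, 4 and 4 in male pair 2, and 10 and 5 in male pair 3. Male pair 2, with equal counts, differed only through library scaling.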

How the results depend on the processing

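Over 19 alternatives Cat stayed between 1.32 and 1.66 (largest adjusted p = 0.000334, edgeR or DESeq2) and Sod3 between 1.01 and 1.29 (largest 0.00687), on the log2 scale. The number of the 10 genes higher in soleus was 2 in all of them. The number lower was 1 with no filter on low counts and 1 in the male libraries alone, and 1 to 2 without each library in turn. With the replicate block edgeR called 1207 genes in all, 621 higher and 586 lower in soleus, and the 4 calls among the 10 genes were unchanged; of the genes named from the lists, Prdx6 lost its call (log2 fold change 0.81) under the block, and the calls it added in the lists were Slc7a11, Gstm2, Pdk4, Ucp3, Slc30a9 and Selenot. Gstz1 lost its call in the male libraries alone, and Sgk1 with protein-coding transcripts only. The counts called in the 11 lists, 22 by direction, were within 1.5 times in 344 of 418 recomputed values. Of all genes, 435 to 751 were higher and 441 to 602 lower in soleus without each library in turn.

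Directions turned for uncalled genes. Gpx1 was at -0.065 with protein-coding transcripts only, at -0.36 in the male libraries alone and at -0.24 to 0.38 without each library in turn; Mt1 ran from -0.69 to 0.23 and Mt2 from -0.85 to 0.58. The female minus male count in TA, 1 of 9, was 2 with no filter, 3 under DESeq2's Wald test (added after the data were seen) and 0 to 3 without each library in turn. In soleus, 0 of 9 became 1 with no filter, and it stayed at 0 without any 1 of the male libraries. It moved without soleus female 1, where soleus female 2 was the only female soleus library left, so that count is not given. No filter moved the share of calls that were higher in soleus to 56.2%, against 49.8%. The causes were not tested. Counts were few for Gpx1, Gpx4, Mt1 and Mt2, and their intervals or limits are wide.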
